A study of Homo sapiens with 14 samples.

Results

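SNX12, its paralog SNX3, the SNX-BAR sorting nexins SNX1, SNX2, SNX5 and SNX6, the PDZ sorting nexin SNX27 and the retromer subunits VPS26A, VPS29 and VPS35 were followed in HEK293T cells after transfection of miR-34a. These 10 genes were taken by symbol from a table of 63140 genes, and all 10 had enough reads to be tested. SNX12 was chosen by its measured fold changes, a steep fall against control in these libraries, so its values are given as a description without a test. SNX3 was added as its paralog, and the other 8 as members of the same sorting machinery. HEK293T cells descend from human embryonic kidney and express large T antigen of SV40. RNA was collected 24 h after transfection of 1 of 3 duplexes and sequenced as bulk polyadenylated RNA. The miR-34a-RS group (n = 4, replicates 1, 2, 3 and 5) received a miR-34a duplex with guide residues 13 and 14 replaced by rSpacer, an abasic residue with a backbone and no base. The miR-34a-WT group (n = 5) received the unmodified duplex. The control group (n = 5) received the AllStars negative control siRNA from Qiagen. Every group is the same cell line, transfected with a synthetic duplex, and the labels do not state whether replicates came from separate cultures. P-values therefore rest on library-to-library spread alone, and that spread may be technical.

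A microRNA guides an Argonaute protein to messenger RNAs, mostly by pairing of its seed near the 5′ end with the 3′ UTR, and the bound transcript is repressed and degraded. Pairing further along the guide can add to the binding, and the abasic residues remove it at their positions. Sorting nexins share a PX domain, which binds phosphoinositides of the endosome membrane. SNX3 and SNX12 consist of little more than that domain. Retromer, the trimer of VPS26, VPS29 and VPS35, sorts membrane proteins out of endosomes toward the Golgi or the cell surface, with SNX3, SNX27 or other nexins as adaptors. SNX1 or SNX2 pairs with SNX5 or SNX6 to bend the endosome membrane into tubules.

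The guide is shown because its seed (positions 2 to 8, capitals in the first line) defines the matches searched for. It is also shown because positions 13 and 14 (capitals in the second line) lack their bases in miR-34a-RS. Both lines are the mature sequence of RefSeq (GRCh38.p14, chr1:9151735-9151756, minus strand).
hsa-miR-34a-5p, seed: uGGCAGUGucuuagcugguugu
hsa-miR-34a-5p, abasic positions: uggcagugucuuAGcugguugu

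SNX12 was the only member with an 8mer match (CACTGCCA) or 7mer-m8 match (CACTGCC) in its 3′ UTR, searched on the sense strand of 1 coding transcript per gene, the one with the longest 3′ UTR in GENCODE 29. The SNX12 gene lies at chrX:71056332-71073426 on the minus strand of GRCh38. Its 8mer starts at base 839 of a 1770-base 3′ UTR, a 6mer (ACTGCC) follows at base 1088, and a 7mer-m8 match lies in the coding sequence at base 275, in a window split by an intron. The windows below are 30 bases each and end opposite guide position 1, with the seed match in capitals. They are shown because they are the places where the guide could pair with the transcript that fell most.
SNX12 8mer in the 3′ UTR, chrX:71060170-71060199, minus strand: ttgaggggtgggggcaactcacCACTGCCA
SNX12 6mer in the 3′ UTR, chrX:71059922-71059951, minus strand: cagcgtggtcacagggttattgaACTGCCt
SNX12 7mer-m8 in the coding sequence, chrX:71061947-71062862, minus strand: gatagcaagattgtagtaccacCACTGCCt

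None of these windows holds AGCT, the complement of guide positions 13 to 16, at 1 to 15 bases upstream of the seed match. Of 13608 tested genes with a 3′ UTR, 6.03% had an 8mer there and 1.64% had an 8mer or 7mer-m8 with AGCT so placed. Among the 2173 genes whose 3′ UTR was close in length to that of SNX12, 6.17% had an 8mer. A match is a string in the annotated transcript, not a measured binding site. The shorter annotated transcript SNX12-201 has a 3′ UTR of 146 bases with no match.

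SNX3, SNX2, SNX5, SNX6, SNX27, VPS26A, VPS29 and VPS35 had no seed match of any class in their 3′ UTRs, and SNX1 had a 7mer-A1 match (ACTGCCA). The SNX1 window is shown because it is the only one of the members with AGCT upstream, at 3 and at 9 bases from the base opposite position 8. VPS35 carried an 8mer in its coding sequence and SNX5 a 7mer-m8 there, shown because neither transcript fell as SNX12 did. Of the tested genes with a 3′ UTR, 20.8% had an 8mer or 7mer-m8 before the 3′ UTR. A 7mer-A1 in the 3′ UTR was found in 8.83% of them. How often AGCT lies upstream of a 7mer-A1 was not counted, since the 1.64% above covers only 8mer and 7mer-m8 matches.
SNX1 7mer-A1 in the 3′ UTR, chr15:64138810-64138839, plus strand: tcctttgtgagctcgagctgctgACTGCCA
VPS35 8mer in the coding sequence, chr16:46668987-46669016, minus strand: ggaaatcagcggattcgcttcaCACTGCCA
SNX5 7mer-m8 in the coding sequence, chr20:17955464-17956950, minus strand: tttacagtgcacacaaagaccaCACTGCCc

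The libraries held 22242203 to 36255297 counts and gave 18321 tested genes. Levels are CPM, read counts set relative to library size and scaled by TMM factors, which correct for library composition. The neurofilament gene NEFL, a marker that HEK293T shares with neurons, was at 34.9 to 60.9 CPM, and the mesenchymal gene VIM at 186 to 218 CPM. The blood marker PTPRC was at 0 in 11 of the 14 libraries and the fibroblast collagen COL1A2 at 0 in all 14. NEFL was itself lower with the microRNAs, at a mean of 39.2 CPM with miR-34a-RS and 37.8 CPM with miR-34a-WT, against 56.0 CPM in control. The 7 HEK293T markers together summed to 558 to 589 CPM with miR-34a-RS, 555 to 612 CPM with miR-34a-WT and 610 to 651 CPM in control. The other marker sums overlapped between all groups except that the 4 blood markers summed to 3.37 to 3.63 CPM with miR-34a-RS and 2.55 to 3.14 CPM in control, and the 3 endothelial markers to 0.0875 to 0.192 and 0.0296 to 0.0576 CPM. Whether these shifts play a part in the results below was not tested.

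SNX12, which encodes a PX-only sorting nexin of early endosomes, was at 25.02, 24.34, 22.9 and 24.82 CPM with miR-34a-RS (replicates 1, 2, 3 and 5), at 29.1, 31.9, 27.8, 29.1 and 26.7 CPM with miR-34a-WT, and at 85.6, 86.4, 89.9, 85.2 and 83.6 CPM in control. All 9 microRNA libraries lay far below the control libraries, and the 4 miR-34a-RS libraries lay below every miR-34a-WT library. The raw counts behind these levels were 741 to 851 with miR-34a-RS, 752 to 967 with miR-34a-WT and 1861 to 3035 in control. SNX12 averaged 24.3 ± 0.958 CPM with miR-34a-RS (SD, n = 4), 28.9 ± 1.96 CPM with miR-34a-WT (SD, n = 5) and 86.1 ± 2.32 CPM in control (SD, n = 5). In bulk RNA, less of the transcript per cell and fewer cells that carry it cannot be told apart.

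The fitted log2 fold change of SNX12 was -1.57 for miR-34a-WT against control (SE 0.049, 95% interval -1.68 to -1.47), which leaves 33.6% of the control level. For miR-34a-RS against control it was -1.83 (SE 0.053, 95% interval -1.94 to -1.72), which leaves 28.2%. The miR-34a-RS level was 83.9% of the miR-34a-WT level, a log2 fold change of -0.25 (SE 0.054, 95% interval -0.37 to -0.14). SNX12 was thus lower with the abasic guide than with the intact one, in each of the 4 same-numbered pairs of libraries. Both comparisons against control use the same 5 control libraries. No test is given for any of these, since the fall chose the gene. The SEs and intervals of SNX12 do not allow for that choice. They describe the spread between libraries and are not to be read as a test.

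**Figure D1:**
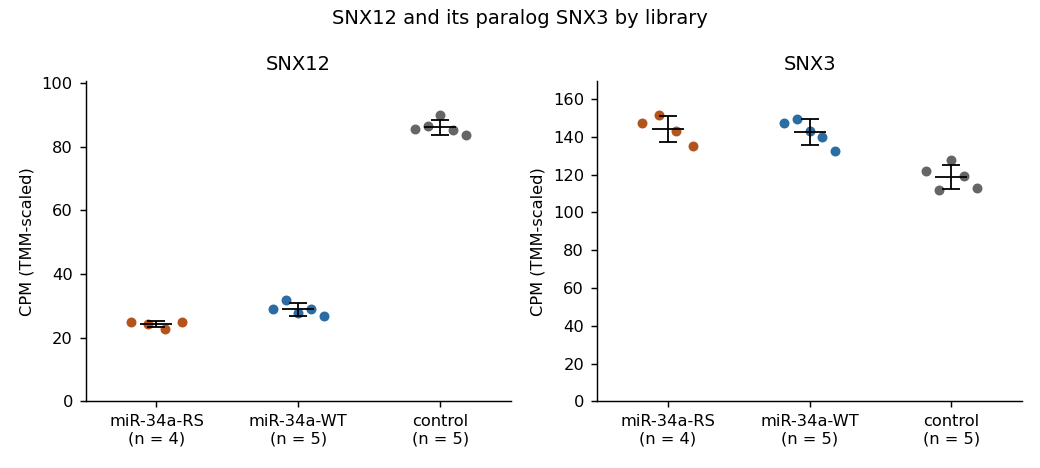
Level of SNX12 (left) and SNX3 (right) in each library, in TMM-scaled CPM on a linear axis from 0; points are libraries, horizontal marks are group means and bars are ± 1 SD. SNX12 sits between 22.9 and 31.9 CPM in the 9 microRNA libraries and between 83.6 and 89.9 CPM in control, while SNX3 is higher in every microRNA library than in any control library.

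Among 11050 genes with a mean of at least 5 CPM, unnamed clone and LINC genes left out, SNX12 ranked 4th from the lowest fold change for miR-34a-RS against control, 18th for miR-34a-WT against control and 67th between the microRNAs. Of 666 tested genes at that level with an 8mer in the 3′ UTR, 2 had a lower fold change than SNX12 with miR-34a-RS and 9 with miR-34a-WT. The median of these 666 genes was -0.185 on the log2 scale with miR-34a-RS and -0.203 with miR-34a-WT, against medians of 0.04 and 0.05 for the 6799 genes with no match. Between the microRNAs the median of the 8mer genes was -0.01, with quartiles of -0.07 and 0.06, and 10 of the 666 lay below SNX12. All 10 were among the 596 genes whose 8mer and 7mer-m8 matches had no AGCT upstream, which are most of the 666. These ranks describe a gene chosen for its fall and carry no test.

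**Figure D2:**
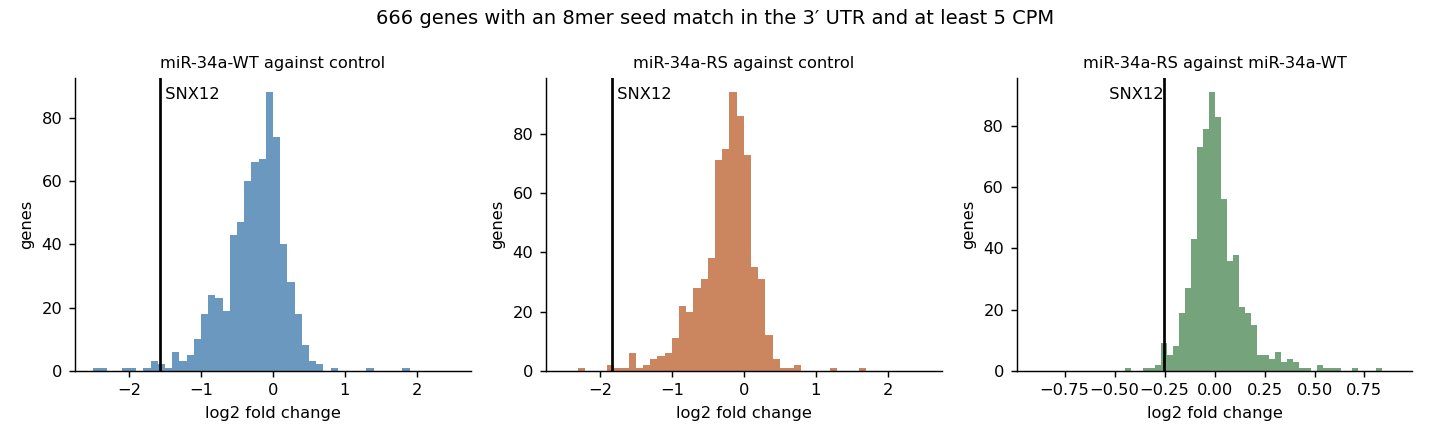
Histograms of the fitted log2 fold change (x axis) over the 666 genes with an 8mer in the 3′ UTR and a mean of at least 5 CPM (y axis, number of genes) in the 3 comparisons, with a vertical line at SNX12; the right panel has a narrower x axis. SNX12 lies in the far lower tail against control, at -1.57 and -1.83, and at -0.25 between the microRNAs.

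The 6 genes whose pattern over the 14 libraries was most like that of SNX12 were E2F5, CDK6, GRN, HAND1, RDH11 and KIT. Likeness was the root mean square difference of log2 CPM centred per gene, which was 0.116 for E2F5 and CDK6, 0.141 for GRN, 0.148 for HAND1, 0.151 for RDH11 and 0.154 for KIT. CDK6, a kinase of the G1 phase, was at 32.6 ± 4.08 CPM with miR-34a-RS (SD, n = 4), 34.1 ± 2.29 CPM with miR-34a-WT and 104 ± 6.14 CPM in control (SD, n = 5 each). GRN, which encodes the lysosomal protein progranulin, was at 66.5 ± 4.35 CPM with miR-34a-RS (SD, n = 4), 69.1 ± 2.02 CPM with miR-34a-WT and 210 ± 18.5 CPM in control (SD, n = 5 each). HAND1, which encodes a transcription factor, was at 8.42 ± 0.307 CPM with miR-34a-RS (SD, n = 4), 10.3 ± 0.876 CPM with miR-34a-WT and 27.1 ± 1.36 CPM in control (SD, n = 5 each). E2F5 and KIT had an 8mer in the 3′ UTR and CDK6 had 2 matches of the 7mer-m8 class, RDH11 had 2 7mer-A1 matches, and GRN and HAND1 had no match there. Between the microRNAs the log2 fold changes of the 6 ranged from -0.30 for HAND1 to 0.01 for RDH11, given without a test because likeness to SNX12 over the same libraries chose these genes.

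SNX3, which hands the Wnt carrier Wntless to retromer, rose with both microRNAs. It was at 147, 151, 143 and 135 CPM with miR-34a-RS, at 147, 150, 143, 140 and 132 CPM with miR-34a-WT, and at 122, 112, 128, 119 and 113 CPM in control. Every microRNA library was above every control library, and the 2 microRNA groups overlapped. The rise was 0.28 on the log2 scale for miR-34a-RS against control (SE 0.050, 95% interval 0.18 to 0.38, adjusted p = 7.93e-05) and 0.26 for miR-34a-WT against control (SE 0.047, 95% interval 0.16 to 0.36, adjusted p = 7.19e-05; edgeR, Benjamini-Hochberg). Between the microRNAs the difference was 0.02 (95% interval -0.08 to 0.12). SNX3 and SNX12 are separate loci on different chromosomes, and the 2 SNX3 pseudogenes in the table, SNX3P1X and SNX3P1Y, had no reads.

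The ratio of SNX12 to SNX3 counts within a library, which no scaling factor can move, was 0.169 ± 0.011 with miR-34a-RS (SD, n = 4), 0.203 ± 0.00773 with miR-34a-WT (SD, n = 5) and 0.726 ± 0.0296 in control (SD, n = 5). It ranged from 0.160 to 0.184 with miR-34a-RS, from 0.195 to 0.213 with miR-34a-WT and from 0.700 to 0.771 in control, with no overlap between any of the groups. Per kilobase of transcript, SNX12 made up 11.1% ± 0.639 of the sum of both paralogs with miR-34a-RS, 13.04% ± 0.428 with miR-34a-WT and 34.9% ± 0.918 in control. That sum was 92.4 ± 3.96 CPM per kilobase with miR-34a-RS, 93.3 ± 4.6 with miR-34a-WT and 104 ± 4.47 in control (SD, n = 4, 5 and 5). The higher level of SNX3 was therefore smaller, per kilobase, than the lost level of SNX12.

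Apart from SNX12, 6 of the 9 genes changed for miR-34a-WT against control (SNX3, SNX2 and VPS29 higher, SNX5, SNX6 and VPS26A lower), where 40.2% of all tested genes changed (18.9% higher, 21.3% lower). For miR-34a-RS against control 6 of the 9 changed (SNX3 and SNX2 higher, SNX1, SNX5, SNX6 and VPS26A lower), where 34.6% of all tested genes did (16.2% higher, 18.4% lower). Their median log2 fold change was -0.01 with miR-34a-RS and -0.02 with miR-34a-WT, and over all tested genes it was -0.01 and -0.02. Between the microRNAs none of the 9 passed, where 1.56% of all tested genes did (1.03% higher, 0.535% lower with miR-34a-RS), and none had an unadjusted p under 0.05. DESeq2 called none of them either, nor did a fit blocked by replicate number. These calls are edgeR quasi-likelihood tests, adjusted over the 18321 tested genes by Benjamini-Hochberg, at a threshold of 0.05. The tested genes include many below 5 CPM, while the 9 members averaged 69.3 to 312 CPM in control. The shares are therefore not matched for level, and a higher share among the members is not read as an excess.

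**Figure D3:**
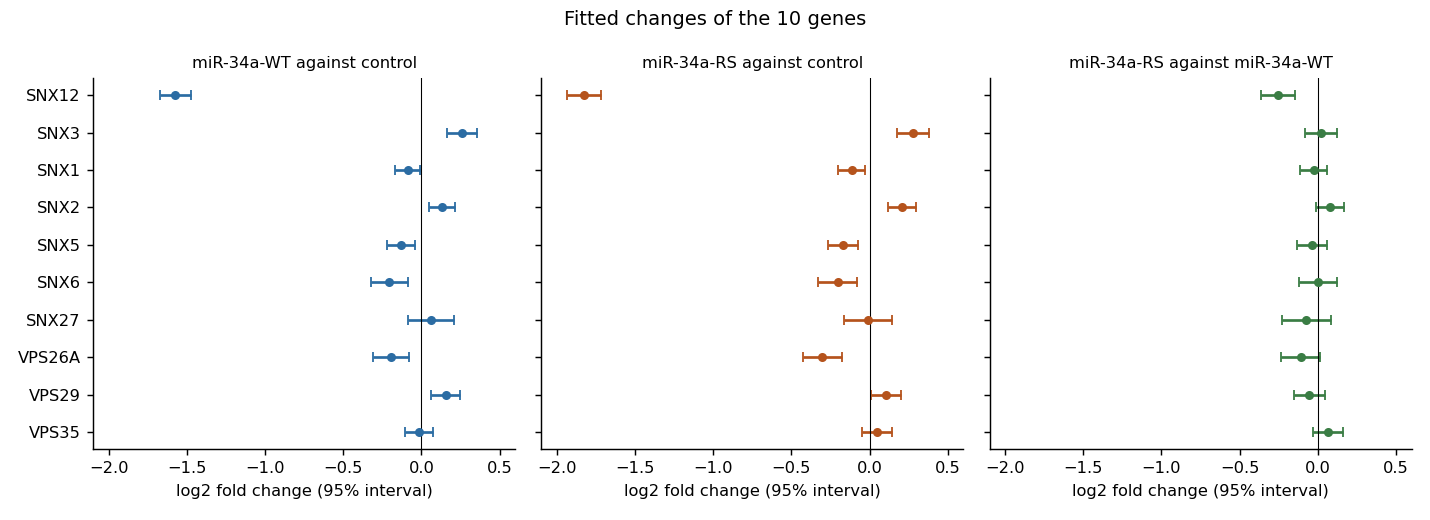
Fitted log2 fold change (x axis) of the 10 genes (y axis) in the 3 comparisons; points are estimates and bars 95% intervals from the fit over all genes. SNX12 stands alone at -1.57 and -1.83 against control, while the other 9 genes lie between -0.30 and 0.28. The bars of SNX12 do not allow for its choice by the fall and are not a test.

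Among the SNX-BAR nexins SNX2 rose with both microRNAs, while SNX5 and SNX6 fell. SNX2 was at 144, 140, 134 and 134 CPM with miR-34a-RS, at 136, 135, 129, 127 and 128 CPM with miR-34a-WT, and at 125, 116, 122, 117 and 120 CPM in control. Each of the 9 microRNA libraries was above all control libraries. SNX2 was higher by 0.21 on the log2 scale for miR-34a-RS against control (SE 0.043, adjusted p = 0.000423) and by 0.13 for miR-34a-WT against control (SE 0.041, adjusted p = 0.0123; edgeR quasi-likelihood test). SNX1, which can take the place of SNX2 in the dimer, was at 83.2, 83.6, 81.5 and 85.9 CPM with miR-34a-RS, at 85.9, 86.8, 83.8, 83.6 and 85.1 CPM with miR-34a-WT, and at 92.9, 88.1, 90.4, 93.0 and 87.6 CPM in control. Its microRNA libraries were all below its control libraries, by a narrow margin. SNX1 fell by 0.11 on the log2 scale for miR-34a-RS against control (SE 0.041; edgeR adjusted p = 0.0351), and its value for miR-34a-WT against control was -0.09 (SE 0.039, adjusted p = 0.0763). That call of SNX1 was lost in 14 of 20 other settings, among them leaving out control replicate 1, 2, 3 or 4, miR-34a-RS replicate 1, 2 or 3, or miR-34a-WT replicate 2, 3 or 4, with edgeR adjusted p from 0.0696 to 0.11 and log2 fold changes from -0.114 to -0.096.

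SNX5 and SNX6, their partners in the dimers, were lower with both microRNAs. SNX5, which recognises a sorting motif in the tail of the mannose 6-phosphate receptor IGF2R, was at 291, 275, 275 and 267 CPM with miR-34a-RS, at 303, 289, 282, 276 and 274 CPM with miR-34a-WT, and at 337, 306, 318, 307 and 292 CPM in control. It fell by 0.17 on the log2 scale for miR-34a-RS against control (SE 0.046, adjusted p = 0.00464) and by 0.13 for miR-34a-WT against control (SE 0.043, adjusted p = 0.0157; edgeR quasi-likelihood test). The groups did not overlap for miR-34a-RS, and 4 of 5 miR-34a-WT libraries were below all control libraries. The miR-34a-WT call was lost without control replicate 1, miR-34a-WT replicate 3 or miR-34a-WT replicate 4 (edgeR adjusted p = 0.059, 0.0706 and 0.0827). Exons of SNX5 share 68 bases with MGME1 on the opposite strand, and strand is not marked by this kit, which leaves the SNX5 value uncertain; MGME1 had 35033 counts in all against 126631 for SNX5, and it rose by 0.16 for miR-34a-RS against control (SE 0.047, edgeR adjusted p = 0.0107).

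SNX6 was at 107, 89.1, 86.0 and 85.0 CPM with miR-34a-RS, at 98.3, 92.8, 94.6, 87.5 and 86.0 CPM with miR-34a-WT, and at 108, 104, 110, 107 and 99.4 CPM in control. Replicate 1 of miR-34a-RS lay within the control range and the other 3 were well below it, so the spread was 11.4% of the mean with miR-34a-RS, 5.51% with miR-34a-WT and 3.95% in control. SNX6 fell by 0.20 on the log2 scale for miR-34a-RS against control (SE 0.060, adjusted p = 0.00982) and by 0.20 for miR-34a-WT against control (SE 0.057, adjusted p = 0.00509; edgeR quasi-likelihood test). Both calls held in all 20 other settings.

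**Figure D4:**
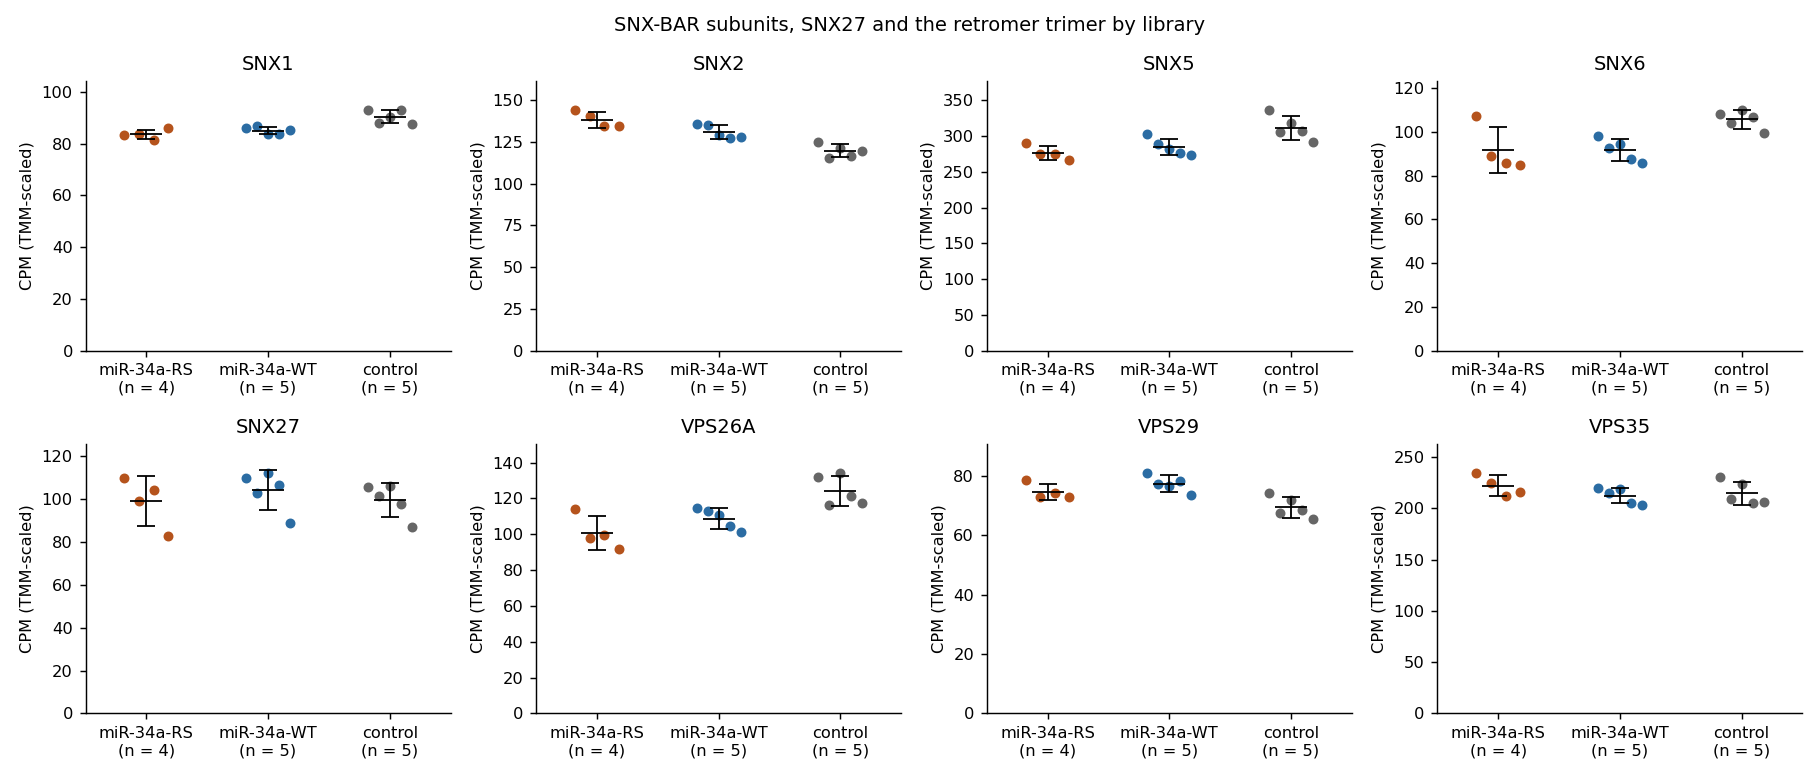
Level of SNX1, SNX2, SNX5, SNX6, SNX27, VPS26A, VPS29 and VPS35 in each library, in TMM-scaled CPM on linear axes from 0; points are libraries, horizontal marks are group means and bars are ± 1 SD. The differences between groups are small beside the level of each gene, and miR-34a-RS replicate 1 is the highest of its group for SNX6, at 107 CPM, and for VPS26A, at 114 CPM.

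The subunits of the retromer trimer went in different directions. VPS26A, the arrestin-like subunit that contacts SNX3 and SNX27, was at 114, 97.7, 99.6 and 91.9 CPM with miR-34a-RS, at 115, 113, 111, 105 and 101 CPM with miR-34a-WT, and at 132, 117, 134, 122 and 117 CPM in control. All microRNA libraries were below all control libraries. It fell by 0.30 on the log2 scale for miR-34a-RS against control (SE 0.060, 95% interval -0.43 to -0.18, adjusted p = 0.000268) and by 0.19 for miR-34a-WT against control (SE 0.056, adjusted p = 0.00736; edgeR quasi-likelihood test). Between the microRNAs VPS26A was at -0.11 (95% interval -0.23 to 0.01; edgeR adjusted p = 0.494). It was lower with miR-34a-RS in each of the 4 same-numbered pairs, and with the replicate number as a block its value was -0.12 (95% interval -0.20 to -0.04; edgeR adjusted p = 0.0507).

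VPS29, the subunit that recruits the RAB7 regulator TBC1D5, was at 78.5, 72.9, 74.2 and 72.7 CPM with miR-34a-RS, at 81.0, 77.4, 76.6, 78.3 and 73.5 CPM with miR-34a-WT, and at 74.1, 67.3, 71.7, 68.3 and 65.3 CPM in control. It was higher by 0.16 on the log2 scale for miR-34a-WT against control (SE 0.045, edgeR adjusted p = 0.00657), with 4 of 5 libraries above all control libraries. For miR-34a-RS against control the value was 0.10 (SE 0.048, edgeR adjusted p = 0.0941), and it passed without control replicate 1 (0.133, adjusted p = 0.0332), with upper-quartile factors (adjusted p = 0.0464) and in the DESeq2 Wald test (adjusted p = 0.0456). VPS29 exons share 69 bases with an unnamed transcript on the opposite strand that had 331 counts in all, against 32007 for VPS29. VPS35, the scaffold that holds the trimer together, was at 212 to 235 CPM with miR-34a-RS (median of the group 221), 203 to 220 CPM with miR-34a-WT and 205 to 230 CPM in control. The 3 groups overlapped, and the log2 fold changes of VPS35 against control were 0.05 with miR-34a-RS (95% interval -0.05 to 0.14) and -0.02 with miR-34a-WT (95% interval -0.11 to 0.08).

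SNX27, whose PDZ domain binds the tails of receptors and transporters, was at 110, 99.1, 104 and 83.0 CPM with miR-34a-RS, at 110, 103, 112, 107 and 88.9 CPM with miR-34a-WT, and at 106, 102, 106, 97.9 and 87.2 CPM in control. The groups overlapped, and replicate 5 was the lowest library of each. Its log2 fold change was -0.01 for miR-34a-RS against control (95% interval -0.17 to 0.14) and 0.06 for miR-34a-WT against control (95% interval -0.08 to 0.21). Those intervals are from the fit without a block, and smaller differences lie within them. With the replicate number as a block they were -0.082 to 0.06 for miR-34a-RS and -0.002 to 0.128 for miR-34a-WT.

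Levels can be compared between genes only per length, here CPM per kilobase of the coding transcript with the longest 3′ UTR. In control the order was SNX5 (136 ± 7.3), SNX3 (67.7 ± 3.7), SNX2 (56.3 ± 1.82), VPS26A (48.7 ± 3.28), VPS29 (45.5 ± 2.32), SNX12 (36.3 ± 0.977), VPS35 (31.6 ± 1.66), SNX6 (31.1 ± 1.23), SNX1 (26.8 ± 0.767) and SNX27 (13.8 ± 1.08; SD, n = 5). The ranges of neighbours overlapped for VPS26A with VPS29 and for VPS35 with SNX6. With miR-34a-RS, SNX12 was 10th of the 10 at 10.2 ± 0.403 CPM per kilobase (SD, n = 4), below all SNX27 values of that group. With miR-34a-WT it was also 10th, at 12.2 ± 0.825 CPM per kilobase (SD, n = 5), and its range overlapped that of SNX27. VPS29 was above VPS26A with both microRNAs, at 49.0 ± 1.78 and 39.5 ± 3.7 CPM per kilobase with miR-34a-RS and 50.8 ± 1.81 and 42.6 ± 2.27 with miR-34a-WT, without overlap. The order depends on the length used: per kilobase of all annotated exons, SNX3 was 1st and SNX5 2nd in control, and SNX12 was 8th with both microRNAs. VPS29 was then below VPS26A, at 23.2 and 28.3 CPM per kilobase with miR-34a-RS and 24.1 and 30.5 with miR-34a-WT.

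Genes that work with these members were followed in 6 lists, always against the same control libraries. The share of all tested genes given beside each list is not matched for expression level. A list share above it is therefore not read as an excess. Of 6 retromer partners, 3 rose and 1 fell for miR-34a-RS against control, and 3 rose and 1 fell for miR-34a-WT against control, with median log2 fold changes of 0.07 and 0.07. That is 66.7% of the list in each comparison, against 34.6% and 40.2% of all tested genes. The one that fell was TBC1D5, the GTPase-activating protein for RAB7, at 21.7 ± 0.873 CPM with miR-34a-RS (SD, n = 4), 21.7 ± 1.2 CPM with miR-34a-WT and 32.5 ± 2.19 CPM in control (SD, n = 5 each). It fell by 0.58 on the log2 scale with miR-34a-RS (SE 0.058, edgeR adjusted p = 1.31e-08) and with miR-34a-WT (SE 0.055, edgeR adjusted p = 3.65e-09). TBC1D5 has a 7mer-m8 match in its 3′ UTR. ANKRD27, another partner, has an 8mer there and its log2 fold changes were -0.03 with miR-34a-RS (edgeR adjusted p = 0.633) and -0.01 with miR-34a-WT (edgeR adjusted p = 0.898). Both windows are shown because they are the only 8mer or 7mer-m8 matches in 3′ UTRs of the partners:
TBC1D5 7mer-m8 in the 3′ UTR, chr3:17159746-17159775, minus strand: gtgaaccccgtatcctgggcccCACTGCCg
ANKRD27 8mer in the 3′ UTR, chr19:32637513-32637542, minus strand: gcagccactcccgatgggctgcCACTGCCA

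VPS26B, the paralog that can replace VPS26A in the trimer, rose by 0.27 on the log2 scale for miR-34a-RS against control (SE 0.051, edgeR adjusted p = 0.000187) and by 0.22 for miR-34a-WT against control (SE 0.048, edgeR adjusted p = 0.000845). It was at 80.6 ± 3.88 CPM with miR-34a-RS (SD, n = 4), 77.7 ± 4.13 CPM with miR-34a-WT and 67.0 ± 3.32 CPM in control (SD, n = 5 each). Per kilobase, VPS26A made up 64.3% ± 2.99 of both paralogs with miR-34a-RS, 66.9% ± 2.21 with miR-34a-WT and 72.8% ± 1.96 in control. The sum of both was 61.3 ± 2.96 CPM per kilobase with miR-34a-RS, 63.7 ± 1.64 with miR-34a-WT and 66.8 ± 2.99 in control. DNAJC13, an endosomal co-chaperone, rose against control by 0.15 on the log2 scale with miR-34a-RS (SE 0.049, edgeR adjusted p = 0.0159) and by 0.26 with miR-34a-WT (SE 0.046, edgeR adjusted p = 6.54e-05).

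Of 23 other sorting nexins 21 were tested, since SNX20 had no reads and SNX31 had 16 in all. For miR-34a-RS against control 3 rose and 6 fell (median log2 fold change -0.07), and for miR-34a-WT against control 4 rose and 8 fell (median -0.06). These are 42.9% and 57.1% of those tested, against 34.6% and 40.2% of all tested genes. SNX13, a nexin with an RGS domain, was at 61.9 ± 3.39 CPM with miR-34a-RS (SD, n = 4), 65.8 ± 2.02 CPM with miR-34a-WT and 51.2 ± 2.18 CPM in control (SD, n = 5 each). It rose on the log2 scale by 0.27 (SE 0.048) with miR-34a-RS and 0.36 (SE 0.046) with miR-34a-WT, with edgeR adjusted p = 8.25e-05 and 5.6e-07. SNX17, the cargo adaptor of retriever, fell by 0.26 (SE 0.054) with miR-34a-RS and 0.40 (SE 0.051) with miR-34a-WT, with edgeR adjusted p = 0.000402 and 5.91e-07, and carries a 7mer-m8 match in its 3′ UTR. SNX29 carries one too and rose by 0.20 with miR-34a-RS (SE 0.062, edgeR adjusted p = 0.0159) and 0.24 with miR-34a-WT (SE 0.059, edgeR adjusted p = 0.00211). SNX29 and ANKRD27 were named after their values were seen. Of 71 tested genes of the 6 lists, 9 had an 8mer or 7mer-m8 in the 3′ UTR, of which 5 fell, 1 rose and 3 did not pass in each comparison against control, where 18.4% of all tested genes fell with miR-34a-RS and 21.3% with miR-34a-WT. SNX4, a nexin of recycling endosomes, fell by 0.33 (SE 0.048) with miR-34a-RS and 0.15 (SE 0.045) with miR-34a-WT, with edgeR adjusted p = 5.42e-06 and 0.00961, and its miR-34a-WT call was lost without miR-34a-WT replicate 4 (-0.122, adjusted p = 0.0531).

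In the Commander list, which holds the retriever and CCC complexes, 1 of 16 genes rose and 3 fell for miR-34a-RS against control, and 3 rose and 4 fell for miR-34a-WT against control (medians 0.00 on the log2 scale in both). The shares are 25% and 43.8%, against 34.6% and 40.2% of all tested genes. VPS26C, the retriever counterpart of VPS26A, was at 38.8 ± 0.848 CPM with miR-34a-RS (SD, n = 4), 40.6 ± 0.745 CPM with miR-34a-WT and 53.8 ± 1.58 CPM in control (SD, n = 5 each). VPS26C fell on the log2 scale by 0.47 (SE 0.044) with miR-34a-RS and 0.41 (SE 0.041) with miR-34a-WT, with edgeR adjusted p = 3.86e-09 and 1.43e-08. It has 2 7mer-A1 matches in its 3′ UTR. Of the other genes named from the lists, SNX4, PIKFYVE, IGF2R and SNX13 have 1 such match each, and only SNX13 of these rose. DENND10, a Commander subunit, fell by 0.25 (SE 0.067) with miR-34a-RS and 0.27 (SE 0.063) with miR-34a-WT, with edgeR adjusted p = 0.00541 and 0.00116. Its 3′ UTR holds no match. SNX17 is on this list too.

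In the WASH complex, which builds actin on endosomes, 3 of 6 genes rose and 2 fell for miR-34a-RS against control, and 3 rose and 1 fell for miR-34a-WT against control (medians 0.08 and 0.13), which is 83.3% and 66.7% of the list, against 34.6% and 40.2% of all tested genes. WASHC3, its coiled-coil subunit, rose on the log2 scale by 0.42 (SE 0.064) with miR-34a-RS and 0.44 (SE 0.061) with miR-34a-WT, with edgeR adjusted p = 1.02e-05 and 2.58e-06. WASHC2C rose by 0.18 (SE 0.055) with miR-34a-RS and 0.15 (SE 0.053) with miR-34a-WT, with edgeR adjusted p = 0.0132 and 0.0258, but WASHC2A is a near-identical copy, so reads could be split between them. The miR-34a-WT call of WASHC2C was lost without control replicate 2, 4 or 5 or miR-34a-WT replicate 5 (edgeR adjusted p = 0.056, 0.079, 0.0524 and 0.0732). WASHC4 rose by 0.17 for miR-34a-WT against control (SE 0.060, edgeR adjusted p = 0.0271), a call lost without control replicate 4 or 5 or miR-34a-WT replicate 1 (edgeR adjusted p = 0.054, 0.061 and 0.0874). The count of 4 genes for miR-34a-WT was 2, 1 and 2 without control replicate 2, 4 and 5. The count of 5 for miR-34a-RS was 3 without control replicate 2, 4 or 5, miR-34a-RS replicate 2 or 3, or miR-34a-WT replicate 2 or 4, and 2 without miR-34a-RS replicate 5.

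Among 12 cargo genes of retromer and SNX27, 1 rose and 3 fell for miR-34a-RS against control, and 2 rose and 2 fell for miR-34a-WT against control (medians -0.09 and -0.04). The share was 33.3% in each, against 34.6% and 40.2% of all tested genes. SORL1, the sorting receptor that carries the amyloid precursor protein, was at 17.6 ± 0.747 CPM with miR-34a-RS (SD, n = 4), 19.1 ± 1.23 CPM with miR-34a-WT and 28.1 ± 1.85 CPM in control (SD, n = 5 each). It fell on the log2 scale by 0.68 (SE 0.061) with miR-34a-RS and 0.56 (SE 0.057) with miR-34a-WT, with edgeR adjusted p = 2.17e-09 and 1.64e-08, and its 3′ UTR of 4130 bases holds no match. The mannose 6-phosphate receptors went opposite ways. M6PR rose by 0.18 (SE 0.044) with miR-34a-RS and 0.29 (SE 0.041) with miR-34a-WT, with edgeR adjusted p = 0.00193 and 3.47e-06, and IGF2R fell by 0.20 (SE 0.050) with miR-34a-RS and 0.15 (SE 0.047) with miR-34a-WT, with edgeR adjusted p = 0.0027 and 0.0134. The 3′ UTR of IGF2R has an 8mer, with AGCT at 15 bases from the base opposite position 8, and that of M6PR has a 6mer. The miR-34a-WT call of IGF2R was lost without control replicate 2, miR-34a-WT replicate 2 or miR-34a-WT replicate 3 (edgeR adjusted p = 0.1, 0.097 and 0.0751).

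Of 11 genes of endosomal PI3P and RAB5, 3 rose and 3 fell for miR-34a-RS against control, and 3 rose and 1 fell for miR-34a-WT against control (medians 0.03 and 0.02), 54.5% and 36.4% of the list, against 34.6% and 40.2% of all tested genes. PIKFYVE, the kinase that turns PI3P into PI(3,5)P2, fell on the log2 scale by 0.48 (SE 0.053) with miR-34a-RS and 0.31 (SE 0.050) with miR-34a-WT, with edgeR adjusted p = 9.11e-08 and 1.7e-05. RAB5A, the early endosome GTPase, rose by 0.25 (SE 0.054) with miR-34a-RS and 0.23 (SE 0.051) with miR-34a-WT, with edgeR adjusted p = 0.000703 and 0.000938. RBSN, a RAB5 effector, fell by 0.21 for miR-34a-RS against control (SE 0.047, edgeR adjusted p = 0.000949), and its value for miR-34a-WT was -0.11 (edgeR adjusted p = 0.0501), which passed without control replicate 1 or miR-34a-RS replicate 1 (edgeR adjusted p = 0.0387 and 0.0495).

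**Figure D5:**
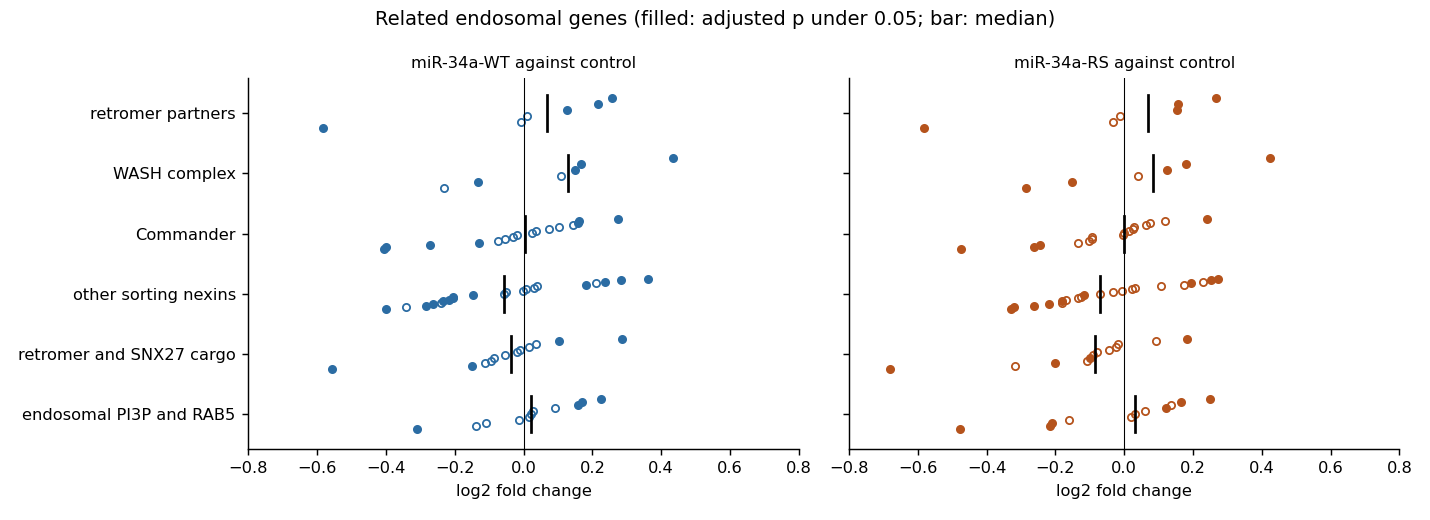
Fitted log2 fold change (x axis) of every tested gene of the 6 related lists (y axis) in the comparisons of each microRNA with control; filled points have an adjusted p under 0.05, open points do not, and black bars are list medians. The list medians lie between -0.09 and 0.13, and no gene of these lists comes near the -1.57 and -1.83 of SNX12.

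Between the microRNAs no gene of the 6 lists passed in the edgeR fit without a block, and 15 of 72 list entries (20.8%) had an unadjusted p under 0.05, SNX17 counted in 2 lists, against 12.2% of all tested genes. Since libraries of these groups with the same number shared deviations, a fit blocked by replicate number is given beside this count. It called 2 of 21 other sorting nexins, 2 of 16 Commander genes, 2 of 12 cargo genes and 2 of 11 genes of PI3P and RAB5. It also called 1 of 6 WASH genes and 0 of 6 retromer partners, where 6.84% of all tested genes passed. SNX17 is counted among both the other sorting nexins and the Commander genes. In that blocked edgeR fit SNX4 was lower with miR-34a-RS by -0.19 on the log2 scale (SE 0.039, adjusted p = 0.00215), PIKFYVE by -0.17 (SE 0.042, adjusted p = 0.00969) and WASHC4 by -0.14 (SE 0.042, adjusted p = 0.0342), and SNX17 was higher by 0.15 (SE 0.036, adjusted p = 0.0102). Without the block, the DESeq2 Wald test called 1 Commander gene, 1 other sorting nexin and 1 cargo gene. In edgeR, counts of 1 or 2 appeared when miR-34a-RS replicate 1 was left out (1 WASH gene, 1 Commander gene, 1 other sorting nexin and 2 genes of PI3P and RAB5), without control replicate 1 (1 Commander gene and 1 other sorting nexin) and without control replicate 5 (1 Commander gene).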

How the data were processed

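The authors deposited one table of whole-number read counts per gene for 14 libraries; the values are raw counts with no sign of normalisation or of pooled libraries. GRCh38, STAR 2.7.11a, Subread 2.0.3 (featureCounts) and edgeR 3.42.4 are named per the submitters' processing notes; the annotation release and strand setting are not given in the sources used here. Per the labels' protocols the library kit was TruSeq RNA v2, a kit that does not mark strand.

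The gene-wise test was that of edgeR 4.0.16 under R 4.3.3 (TMM, filterByExpr by group, robust glmQLFit and glmQLFTest, one fit of 3 group means over 14 libraries), with Benjamini-Hochberg adjustment over 18321 genes and a threshold of 0.05. SE is the absolute log2 fold change over the root of F; intervals are at the 95% level. The script was tested on simulated data. DESeq2 1.42.0 was an alternative. All replicate pairs differed by more than sampling noise (chi-square per degree of freedom 2.72 to 14.3 over 26 pairs).

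The labels do not say what a replicate number marks. Deviations from group means over 11259 genes correlated at 0.37 to 0.72 in the 4 same-numbered pairs of miR-34a-RS and miR-34a-WT. A fit blocked by replicate number is therefore given beside the main fit for this comparison. The main fit has no block, so its counts and intervals between the microRNAs leave that pairing out. Against control the correlations ranged from 0 to 0.48 (miR-34a-RS) and -0.16 to 0.56 (miR-34a-WT). Their means were 0.27 and 0.29, against a mean of -0.07 for differently numbered libraries in each comparison. Those libraries were not taken as pairs, so the main tests against control leave any such shared deviation out. Counts against control with the block are given in the last section.

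Seed matches came from GENCODE 29 (GRCh38), which holds 99.71% of the counts. The members, lists and tests were chosen with earlier results of these data known. Named genes are the 10 members, up to 3 per list (those with the smallest adjusted p over the comparisons), the 6 genes most like SNX12 with at least 5 CPM (log2 CPM with a prior count of 2), and overlapping or pseudogene partners; COL1A2 and other markers came from a marker list.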

Additional observations from a re-analysis of the deposited data

How the results depend on the processing

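Each result was recomputed under 20 other settings: DESeq2 size factors, upper-quartile factors, no low-count filter, the DESeq2 Wald test, only the 2 groups compared, the replicate number as a block, and each of the 14 libraries left out. SNX12 kept its direction in all of them, from -1.595 to -1.543 for miR-34a-WT against control, from -1.839 to -1.8 for miR-34a-RS against control and from -0.282 to -0.215 between the microRNAs.

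The number of the 9 other members that changed stayed at 5 to 7 against control and at 0 between the microRNAs. Over all genes, the count between the microRNAs was 286, against 488 with the DESeq2 Wald test, 1254 with the replicate block and 142 to 730 with 1 library left out (730 without miR-34a-RS replicate 1, 143, 142 and 176 without its replicates 2, 3 and 5, 175 and 151 without miR-34a-WT replicates 1 and 3). With the block, 7715 genes changed with miR-34a-RS and 8817 with miR-34a-WT against control, and 7 of the 9 members in each; SNX1 then passed for miR-34a-WT (adjusted p = 0.028) and VPS29 for miR-34a-RS (adjusted p = 0.0193) in the edgeR fit, and 7 genes of PI3P and RAB5 passed for miR-34a-WT. The SNX5 call for miR-34a-WT was also lost without the low-count filter (edgeR adjusted p = 0.0869).

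Signs turned for values that passed in no setting. VPS35 for miR-34a-WT against control was 0.001 in DESeq2 and -0.03 to 0.013 with a library left out. SNX27 for miR-34a-RS against control was 0.002 with DESeq2 size factors, 0.008 with upper-quartile factors, 0.011 without the filter, 0.005 in the DESeq2 test and -0.054 to 0.066 with a library left out. Between the microRNAs SNX6 was 0 in both DESeq2 settings, -0.009 with the block and -0.073 to 0.037 with a library left out, SNX3 was -0.007 to 0.048 and SNX27 -0.125 to 0.004. WASHC4 for miR-34a-RS against control was -0.031 to 0.079 with a library left out. The WASH count of 5 for miR-34a-RS was 2 without the filter and 3 with upper-quartile factors, the DESeq2 test or only the 2 groups. The 8mer of SNX12 is absent from its shortest annotated coding transcripts, which gives a count of 0 there. The cause was not tested for any of these.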
